A study of Mus musculus with 4 samples.

Results

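Long intergenic noncoding RNA (lincRNA) genes with a measurable level were examined in AML12 cells, an immortalized mouse hepatocyte line, grown as a flat layer (2D) or as spheroids embedded in Matrigel (3D). Members were the genes that the deposited table annotates as lincRNA and whose mean over the 4 libraries was at least 1 TPM (a level scaled per gene length and per library), with the imprinted genes H19 and Meg3 left out. This gave 442 of the 2480 lincRNA genes in the table, while the other 2038 had a mean under 1 TPM. H19 and Meg3 were themselves under 1 TPM, so that leaving them out removed no gene. The level of a gene was therefore used to choose it and is given as a description, whereas its difference between cultures was not part of the rule, except in genes that reached 1 TPM through 1 culture alone.

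A lincRNA is transcribed by RNA polymerase II from a gene that lies between protein-coding genes, is usually capped, spliced and polyadenylated, and is not translated into a known protein. Some lincRNAs act in the nucleus, as scaffolds of nuclear bodies or at genes near their own site of transcription, and others bind proteins or microRNAs in the cytoplasm. Several serve mainly as hosts, whose introns or exons are processed into small nucleolar RNAs (snoRNAs) or microRNAs. In liver cells, as elsewhere, lincRNA levels are mostly low and vary more between cell states than those of messenger RNAs.

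The study compared 2 libraries of 2D cells with 2 libraries of 3D cells. Hydroxyurea, which blocks DNA replication and holds cells where G1 meets S phase, was present in every culture at 1 mM, for 24 h in 2D but for 36 h in 3D. Time in the drug thus went with growth dimension, and their effects cannot be told apart. The labels do not say whether replicates came from separate cultures, so p-values measure only the spread between these libraries. Among hepatocyte markers, Krt8, Krt18, Hnf4a, Ttr and Foxa2 were above 1 TPM in every library, while Serpina1a and Asgr1 stayed under 1 TPM in every library and Alb ranged from 0.819 to 12.7 TPM. Markers of fibroblasts, endothelial cells and leukocytes had means under 1 TPM except Cd3e, which was at 2.00 and 1.72 TPM in 2D and 0.496 and 0.490 TPM in 3D. In bulk RNA, fewer cells of a type and less RNA per cell cannot be told apart.

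The 442 members were mostly low and were dominated by a few genes. Their median was 3.43 TPM, 333 lay under 10 TPM, 24 reached 50 TPM and 10 reached 100 TPM. Together they held 0.749% and 0.779% of the TPM of the 2D libraries and 0.662% and 0.725% of the TPM of the 3D libraries. The 10 highest members accounted for 45.1% of all member TPM, and the first 2 of them, Gm42418 and Malat1, for 21.3%. Most members have no functional name, with 240 predicted-gene names and 134 RIKEN clone names, and they lie on 20 chromosomes. The longest annotated transcript of a member had a median of 1372 nt and ranged from 168 to 20771 nt, the longest being Neat1. By exons, 71 members had 1, 169 had 2, 107 had 3 and 94 had 4 or more.

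The label was checked against a later annotation. GENCODE release M21 held 441 of the members by gene identifier, and 429 of these were still annotated as lincRNA. The gene missing there was Gm37387, which is among the members with the largest differences. Of 271 members found in RefSeq, 256 were listed as long noncoding RNA, 6 as pseudogenes and 9 with a protein, so that a small number of members may not be noncoding. The 9 included Zfp469, a zinc-finger gene at 3.74 and 5.09 TPM in 2D and 7.47 and 7.28 TPM in 3D. Zfp469 was higher in 3D by 0.64 on the log2 scale (adjusted p = 0.0222), but lost this call without 3D replicate 1 (adjusted p = 0.0893) or 3D replicate 2 (adjusted p = 0.0800).

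Differences between cultures were tested for every gene of the table with a mean of at least 1 TPM, on log2(TPM + 1), which understates the change of genes at low TPM. A gene was called when its adjusted p was under 0.05. Of the 442 members, 205 (46.4%) were called, against a background of 50.5% of all 14116 genes tested. In 3D, 67 members (15.2%) were higher and 138 (31.2%) were lower, where the background was 23.4% higher and 27.1% lower. Thus 67.3% of the called members were lower in 3D. The median log2 fold change of the members was −0.19 (quartiles −0.55 and 0.22), against −0.04 for all genes, −0.02 for protein-coding genes and −0.14 for antisense genes. A called difference over 1 on the log2 scale was seen upward in 22 members (4.98%, background 4.37%) and downward in 54 members (12.2%, background 3.83%). Of these, 11 of the 22 and 15 of the 54 had a mean under 1 TPM in the other culture, so that the level rule fixed their direction. Among the 379 members with at least 1 TPM in both cultures, 11 (2.90%) were higher and 39 (10.3%) lower by that measure. Libraries of the 2 cultures did not overlap in 337 members (76.2%, background 77.5%).

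**Figure D1:**
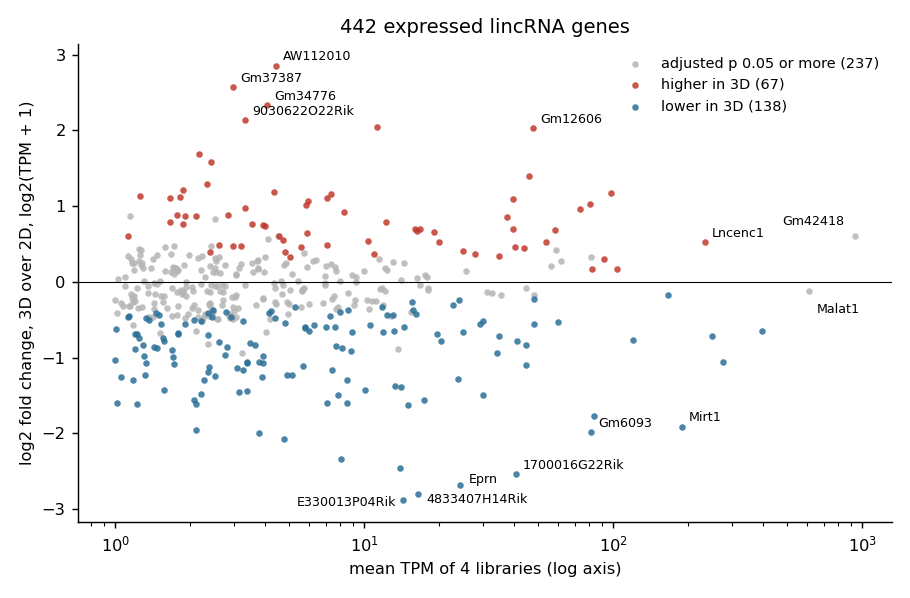
Each point is 1 of the 442 lincRNA genes, with its mean TPM over the 4 libraries on a log axis against its log2 fold change of 3D over 2D on the log2(TPM + 1) scale. The 138 members called lower (blue) outnumber the 67 called higher (red), and both kinds are found among low and abundant members.

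Libraries of 1 culture resembled each other closely for these genes. On log2(TPM + 1), the members of the 2D pair correlated at 0.986 and those of the 3D pair at 0.986, whereas 2D against 3D gave 0.879 to 0.885. Only 1 member differed by more than 1 on the log2 scale within the 2D pair and 2 within the 3D pair, while 76 to 85 did so between any 2D and any 3D library. Over all tested genes the corresponding correlations were 0.991 and 0.992 within cultures and 0.951 to 0.952 between them. Genes are the points here, and they are not independent. The members' TPM is relative within a library, and the mitochondrial share of TPM also moved with culture, from 5.44% and 5.37% in 2D to 6.78% and 6.51% in 3D. Rescaling without mitochondrial and the highest genes left 72 members called higher and 130 lower.

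The tilt toward lower levels in 3D was found among members of low and middle level. Of the 119 members between 1 and 2 TPM, 7.56% were called higher and 26.9% lower, including members that reached 1 TPM in 1 culture only. Protein-coding genes of that level went the other way, with 156 of 709 called higher and 121 lower. Between 10 and 50 TPM, 22.4% of 85 members were higher and 42.4% lower, against 25.2% and 26.0% of 5066 protein-coding genes. Among the 24 members at 50 TPM or more the shares were equal, at 37.5% each. The share called was higher at higher levels in both classes, and the difference between classes was not tested.

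**Figure D2:**
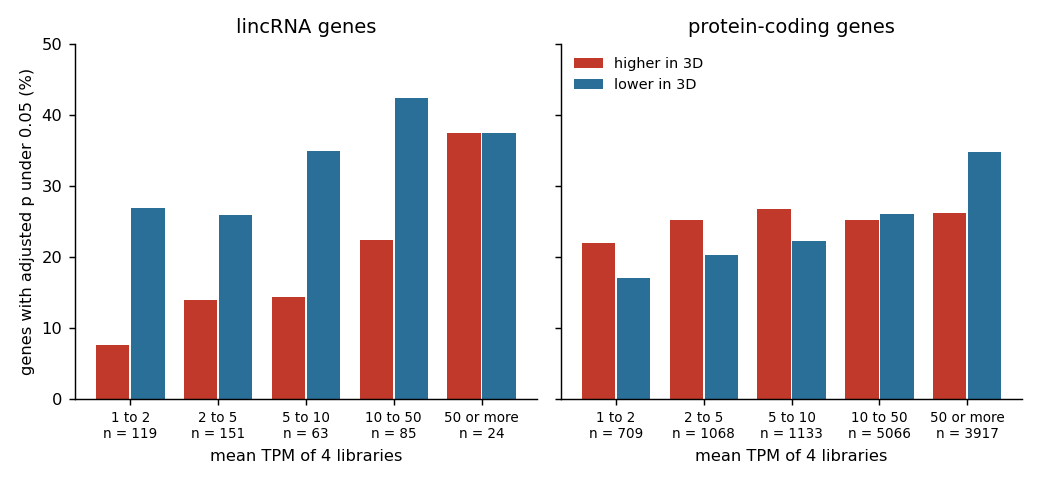
Bars give the percentage of genes called higher (red) or lower (blue) in 3D within bins of mean TPM, for lincRNA genes on the left and protein-coding genes on the right, with n under each bin. Lower calls exceed higher calls in the lincRNA bins under 50 TPM (26.9% against 7.56% in the lowest bin), while in the protein-coding bins under 10 TPM higher calls exceed lower calls. The lowest lincRNA bin includes members that passed the level rule through a single culture, so that the rule fixed their direction.

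Most members were measured in both cultures. In 379 the mean was at least 1 TPM in each culture, and of these 53 were higher (13.98%) and 106 lower (27.97%) in 3D. The background was 23.4% higher and 27.1% lower, and was not restricted to genes at that level in both cultures. Among these 379, the share called lower was thus close to the background, and the share called higher was under it. A further 43 reached 1 TPM in 2D only, with 32 of them called lower, and 20 reached it in 3D only, with 14 called higher. Those 63 members passed the level rule through the culture in which they were high, so their direction follows from the rule. At the threshold, the lowest members were Tslrn1 at a mean of 1.0013 TPM, AC117245.1 at 1.0024 TPM and 2210011K15Rik at 1.0033 TPM. All 3 reached 1 TPM in 2D only, with 3D means of 0.842, 0.311 and 0.574 TPM, so that they had to be lower in 3D. The lincRNA genes just outside were Gm47695 at 0.9989 TPM, Gm42997 at 0.9986 TPM and Gm19325 at 0.9973 TPM. Among the genes under the threshold, 47 had a mean of at least 1 TPM in 2D and 23 in 3D.

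The members with the largest decreases were well expressed in 2D and low in 3D. E330013P04Rik (ENSMUSG00000053117, chr19:60144675-60162591 in GRCm38, with 3 exons in its longest transcript) was at 24.4 and 27.6 TPM in 2D and 2.41 and 2.91 TPM in 3D. It fell by 2.89 on the log2 scale (SE 0.11, adjusted p = 0.000309). The 2D libraries lay far above the 3D libraries, and the replicates of each culture lay close together. Eprn (Ephemeron, ENSMUSG00000113346, chr13:73344665-73347384), described in embryonic stem cells as a modulator of the pluripotency network, was at 44.3 and 41.2 TPM in 2D and 5.46 and 6.16 TPM in 3D. It fell by 2.68 on the log2 scale (SE 0.09, adjusted p = 0.000241), again with no overlap.

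4833407H14Rik (chr19:53460631-53462723) was at 29.4 and 29.5 TPM in 2D and 3.32 and 3.40 TPM in 3D, and fell by 2.80. It lies inside the body of Mirt1 (ENSMUSG00000097636, chr19:53441212-53464796) on the opposite strand. Mirt1, named for a transcript induced after myocardial infarction, was at 288 and 309.8 TPM in 2D and at 77.2 and 79.8 TPM in 3D. It fell by 1.92 on the log2 scale (SE 0.05, adjusted p = 0.000211), and its means of 299 TPM in 2D and 78.5 TPM in 3D were further apart than those of any other member that fell. Both strands of this site thus had lower levels in 3D, and how the quantification divided reads between them is not known.

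1700016G22Rik (ENSMUSG00000100625, chr13:5855508-5858092) was at 61.8 and 78.3 TPM in 2D and at 10.8 and 11.4 TPM in 3D, a fall of 2.54 on the log2 scale (SE 0.13, adjusted p = 0.000447). Gm47507 (chr13:5887109-5928045), 29017 bp away, was at 23.8 and 24.7 TPM in 2D and 2.88 and 4.45 TPM in 3D, and fell by 2.46. Of the remaining members among the 8 lowest, 9230111E07Rik fell by 2.34, Gm29630 by 2.07 and Gm20139 by 2.00. 9230111E07Rik overlaps another member, Gm14321, on the same strand, so that reads may be split between them. Gm20139 was at 5.68 and 7.62 TPM in 2D and at 0.631 and 1.22 TPM in 3D, a mean under 1 TPM, so that the level rule fixed its direction. It lies 126094 bp from Tnfaip3, an inhibitor of NF-kappaB signalling that was higher in 3D by 0.41. Abundant members outside these 8, chosen here after their values were seen, included Gm6093, which went from 124 and 137 TPM to 34.0 and 30.6 TPM, and Wincr1, a gene named for its induction by Wnt signals.

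**Figure D3:**
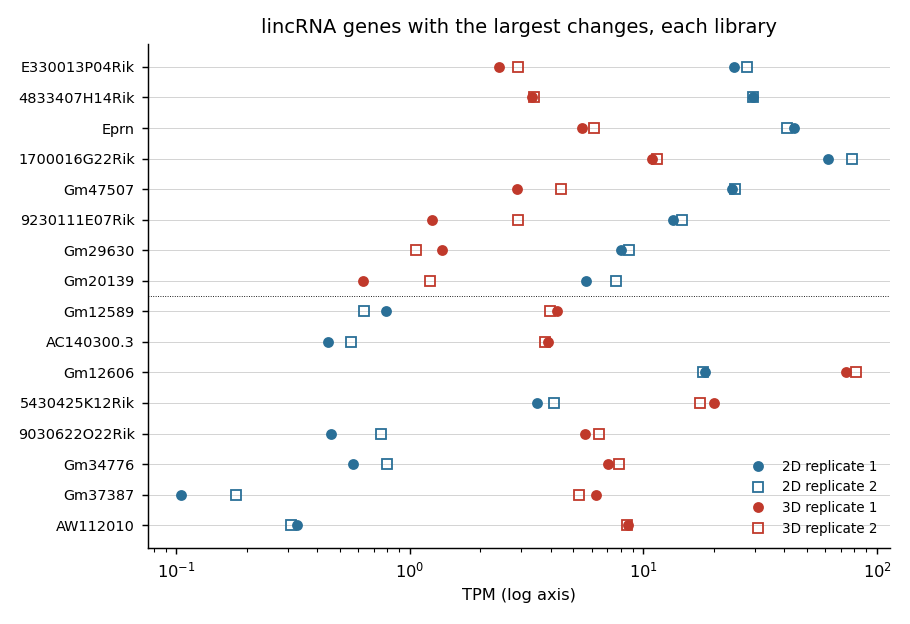
Points give the TPM of each library on a log axis for the 8 called members with the largest decreases (above the dotted line) and the 8 with the largest increases (below it), with 2D in blue, 3D in red, replicate 1 filled and replicate 2 open. The genes were chosen by their differences, and in each the libraries of the 2 cultures are separated. Mean TPM is higher in 3D from 4.26-fold in Gm12606 to 40.6-fold in Gm37387, and higher in 2D up to 9.79-fold in E330013P04Rik. Of the 8 increases, 6 (Gm37387 among them) passed the level rule through 3D only, and of the 8 decreases 1 passed through 2D only.

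The members with the largest increases were mostly near 0 in 2D. Of the 8 highest, 6 had a 2D mean under 1 TPM and passed the level rule through 3D only (AW112010, Gm37387, Gm34776, 9030622O22Rik, AC140300.3 and Gm12589). Their direction follows from the rule, and their values are given as a description. AW112010 (ENSMUSG00000075010, chr19:11047617-11050566), a transcript that activated macrophages translate from a noncanonical reading frame, was at 0.327 and 0.310 TPM in 2D and 8.55 and 8.52 TPM in 3D. It was higher in 3D by 2.85 on the log2 scale, a ratio of 26.8 in mean TPM. Because AW112010 is known from leukocytes, 4 leukocyte markers are given beside it. Ptprc was at 0.184 and 0.111 TPM in 2D and 0.296 and 0.280 TPM in 3D, and Csf1r at 0.182 and 0.127 TPM in 2D and 0.534 and 0.416 TPM in 3D. Adgre1 was at 0.000 TPM in all libraries but 3D replicate 2, and Cd3e had the values given above. Summed over the 4 markers, the level was 2.37 and 1.96 TPM in 2D and 1.33 and 1.24 TPM in 3D, 2 of them (Ptprc and Csf1r) being higher and 1 (Cd3e) lower in both 3D libraries, and their part in the result was not tested. Gm37387 (chr19:11465250-11467055) was at 0.105 and 0.181 TPM in 2D and at 6.29 and 5.31 TPM in 3D, a log2 difference of 2.57 and a ratio of 40.6 in mean TPM. With a pseudocount of 0.1 in place of 1, Gm37387 differed by more than AW112010, at 4.62 against 4.37. Gm34776 was at 0.568 and 0.798 TPM in 2D and 7.06 and 7.87 TPM in 3D, and lies 265274 bp from the nearest protein-coding gene with at least 1 TPM.

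9030622O22Rik (ENSMUSG00000086141, chr2:147944740-148040203) was at 0.460 and 0.751 TPM in 2D and at 5.60 and 6.47 TPM in 3D, a difference of 2.13 on the log2 scale. AC140300.3 and Gm12589 differed by 1.69 and 1.58. The other members of the 8 were above 1 TPM in every library. 5430425K12Rik rose by 2.04 (adjusted p = 0.000550), from 3.50 and 4.13 TPM to 20.1 and 17.5 TPM. Gm12606 (ENSMUSG00000087659, chr4:89235699-89273403) was the most abundant of this group, at 18.4 and 18.0 TPM in 2D and 73.4 and 81.4 TPM in 3D, and rose by 2.03 (adjusted p = 0.000245).

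Start regions of some called members are shown as a description, and no link between sequence and level was tested. RefSeq windows of 300 bases (250 before and 50 after the start, GRCm38.p6) were matched to 172 members whose start in the table lay within 500 bp of the RefSeq start. The 4 windows below belong to AW112010 (the largest increase on the log2(TPM + 1) scale), 1700016G22Rik and Mirt1 (large decreases at abundant genes) and Snhg12 (an abundant snoRNA host with a small decrease). Capitals mark every match on either strand to 1 of 7 strings. Those of core promoters were TATAAA, the box bound by the TATA-binding protein, then CCAAT, bound by the factor NF-Y, and GGGCGG, bound by Sp1. Those of inducible factors were CACGTG, the E box of Myc and its relatives, then TGANTCA, the AP-1 site, then TTCNNNGAA, the GAS-type site of STAT proteins, and GGAATTTCC, a site of the kappa-B type. The last 2 of these were added after the AW112010 window had been read, and none of the 7 contains another.
AW112010, chr19:11050517-11050816, minus strand: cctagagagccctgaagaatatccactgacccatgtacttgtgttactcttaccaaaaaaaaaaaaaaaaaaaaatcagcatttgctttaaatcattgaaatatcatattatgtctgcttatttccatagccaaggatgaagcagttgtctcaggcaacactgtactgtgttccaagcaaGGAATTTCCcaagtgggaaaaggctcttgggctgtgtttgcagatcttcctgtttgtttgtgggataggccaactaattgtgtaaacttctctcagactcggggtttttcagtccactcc
1700016G22Rik, chr13:5858043-5858342, minus strand: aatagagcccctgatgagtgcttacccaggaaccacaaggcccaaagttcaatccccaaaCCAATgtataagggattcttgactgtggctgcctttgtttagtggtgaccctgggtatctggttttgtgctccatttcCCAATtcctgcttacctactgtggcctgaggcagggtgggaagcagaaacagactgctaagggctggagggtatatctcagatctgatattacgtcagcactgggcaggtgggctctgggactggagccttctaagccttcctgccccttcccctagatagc
Mirt1, chr19:53464747-53465046, minus strand: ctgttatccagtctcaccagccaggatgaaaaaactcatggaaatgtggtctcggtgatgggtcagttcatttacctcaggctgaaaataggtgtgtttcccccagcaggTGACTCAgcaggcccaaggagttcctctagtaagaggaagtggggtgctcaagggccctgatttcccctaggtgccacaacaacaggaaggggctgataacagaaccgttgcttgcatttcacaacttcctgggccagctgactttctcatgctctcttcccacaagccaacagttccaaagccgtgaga
Snhg12, chr4:132308428-132308727, plus strand: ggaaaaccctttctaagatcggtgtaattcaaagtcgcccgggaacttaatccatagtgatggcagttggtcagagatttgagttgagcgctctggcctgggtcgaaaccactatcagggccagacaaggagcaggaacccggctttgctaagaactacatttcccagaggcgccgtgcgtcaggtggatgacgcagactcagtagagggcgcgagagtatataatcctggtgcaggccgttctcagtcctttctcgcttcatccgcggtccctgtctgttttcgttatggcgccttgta
The AW112010 window held GGAATTTCC 70 bases before the start, a string present in 0.322% of the 27025 windows of all genes. The 1700016G22Rik window held CCAAT at 190 and 112 bases before the start, and the Mirt1 window held TGACTCA at 140 bases before it. The Snhg12 window had no match, and its RefSeq start lay 55 bases downstream of the start in the table. These are matches of letters and were not tested as binding sites.

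Across members, the window contents were close to those of all genes. CCAAT was in 42.4% of the 172 member windows and 37.9% of all windows, GGGCGG in 41.9% and 35.9%, TATAAA in 14.5% and 14.2%, CACGTG in 9.88% and 7.24%, TGANTCA in 10.5% and 7.93% and TTCNNNGAA in 8.14% and 8.47%. By direction, CCAAT was in 6 of 28 windows of members that were higher in 3D (21.4%), in 28 of 59 of those that were lower (47.5%) and in 39 of 85 of those not called (45.9%). Of the members higher and lower in 3D respectively, GGGCGG was in 35.7% and 40.7%, and TGANTCA in 7.14% and 13.6%. The other strings were at a higher share in the members higher in 3D, with TATAAA in 21.4% and 16.9%, CACGTG in 17.9% and 8.47% and TTCNNNGAA in 14.3% and 6.78%, and GGAATTTCC was in 1 of the 28 windows, that of AW112010, and in 0 of the 59. The median ratio of observed to expected CpG was 0.55 for members higher in 3D, 0.36 for members lower in 3D, 0.50 for members not called and 0.39 for all genes. No test was made of these shares.

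Genes around the members with the largest differences moved with them at some loci and against them at others. At the Ms4a cluster, which encodes membrane proteins with several transmembrane segments, Gm37387 lies 1701 bp downstream of Ms4a4b on the same strand. Ms4a4b was at 13.2 and 10.7 TPM in 2D and 251 and 241 TPM in 3D, a rise of 4.26. The other tested genes of the cluster within 100000 bp were also called higher, with rises between 1.02 (Ms4a6b) and 2.27 (Gm8369). Of these, Ms4a4a, Ms4a6c and Ms4a6b had 2D means under 1 TPM and were tested only because of their 3D level. Their direction, like that of Gm37387, follows from the level filter. Ms4a6b lost its call without 3D replicate 1 (adjusted p = 0.104) or 3D replicate 2 (adjusted p = 0.116). 9030622O22Rik starts 2674 bp downstream of Foxa2 on the same strand, a gene that encodes a pioneer transcription factor of liver cells. Foxa2 was at 15.4 and 12.3 TPM in 2D and 29.2 and 30.9 TPM in 3D, a rise of 1.07, so both genes were higher in 3D, the lincRNA from a level near 0.

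At the Cdkn2a locus the members went in opposite directions. Gm12606 lies 1068 bp downstream of Cdkn2a, which encodes the cell cycle inhibitors p16INK4a and p19ARF. Cdkn2a was at 68.8 and 64.5 TPM in 2D and 101 and 124 TPM in 3D, a rise of 0.74. Cdkn2b, encoding a related inhibitor, rose by 0.62, and Mtap, an enzyme of methionine salvage on the other side of Gm12606, rose by 0.55. Beyond Mtap, Wincr1 was at 133 and 127 TPM in 2D and at 35.9 and 38.5 TPM in 3D, a fall of 1.77, and the noncoding gene Gm12602 fell by 1.10. Along this stretch the genes on the Cdkn2b side were thus higher in 3D and those on the Wincr1 side were lower.

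At 2 other loci the members changed far more than the coding genes beside them. 1700016G22Rik starts 3390 bp from Klf6, in the head-to-head arrangement, and Gm47507 lies 16715 bp downstream of Klf6. Klf6, which encodes a zinc-finger transcription factor, was at 415 and 423 TPM in 2D and at 342 and 343 TPM in 3D, and fell by 0.29. The mean TPM of 1700016G22Rik in 3D was 0.159 of that in 2D. Near Mirt1, Smndc1 (a splicing protein) and Mxi1 (an antagonist of Myc) were higher in 3D, by 0.41 and 0.86, while Dusp5, a phosphatase that acts on ERK, fell by 0.79. The differences between members and their neighbours were not tested.

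**Figure D4:**
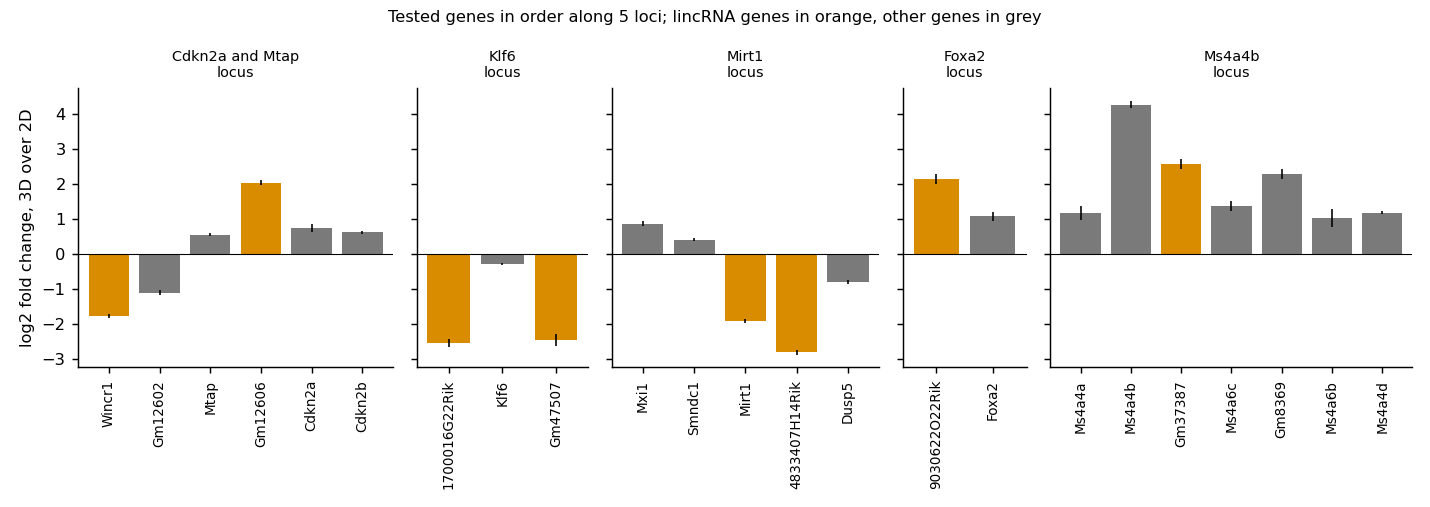
Bars give the log2 fold change of 3D over 2D (log2(TPM + 1) scale, error bars 1 SE of the limma fit over 4 libraries) of the tested genes in order along 5 loci, with lincRNA genes in orange and other genes in grey. Gm37387 and 9030622O22Rik, which passed the level rule through 3D only, share the direction of Ms4a4b and Foxa2. Gm12606 and Wincr1 lie on opposite sides of 0, and 1700016G22Rik and Gm47507 fall much further than Klf6.

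Expressed lincRNA genes lay close to protein-coding genes. The median gap to the nearest protein-coding gene of the table was 6700 bp, with 58 members overlapping one, 33.3% within 1 kb and 54.8% within 10 kb. For the 2038 lincRNA genes under 1 TPM the median gap was 24789.5 bp, with 18.7% within 1 kb and 35.6% within 10 kb. Members that were called lay further from the nearest protein-coding gene with at least 1 TPM, at medians of 15606 bp for those higher in 3D and 17340.5 bp for those lower in 3D, than members not called, at 4857 bp. Of the 71 members with 1 exon, 12 were called higher and 13 lower (35.2% called, background 50.5%). Of 370 with 2 or more exons, 54 were called higher and 125 lower (48.4% called). Called members were also more abundant than those not called, with median levels of 5.89 TPM (higher), 4.78 TPM (lower) and 2.65 TPM (not called). These are descriptions without a test.

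The fold changes of members and of their nearest protein-coding gene with at least 1 TPM were weakly related. Across 442 pairs with 403 distinct neighbours, Spearman's correlation was 0.169 and Pearson's 0.222. The pairs share the same 4 libraries, so the values are given as a description. The member was called in 205 pairs and the neighbour in 246. Both genes were called in 116 pairs, with the same direction in 71 (25 higher and 46 lower) and opposite directions in 45. No expected count was computed. The pairs include members that reached 1 TPM in 1 culture only, whose direction the level rule fixed. By distance, Spearman's correlation was 0.126 for overlapping genes (48 pairs), which can share reads. It was 0.192 for gaps of up to 1 kb without overlap (86 pairs) and 0.317 between 1 and 10 kb (88 pairs). Farther apart, it was 0.211 between 10 and 50 kb (105 pairs) and 0.0705 beyond 50 kb (115 pairs). Directions were shared in 6 of 10 overlapping pairs of called genes and in 12 of 18 up to 1 kb. They were shared in 18 of 24 between 1 and 10 kb, 16 of 26 between 10 and 50 kb and 19 of 38 beyond 50 kb.

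**Figure D5:**
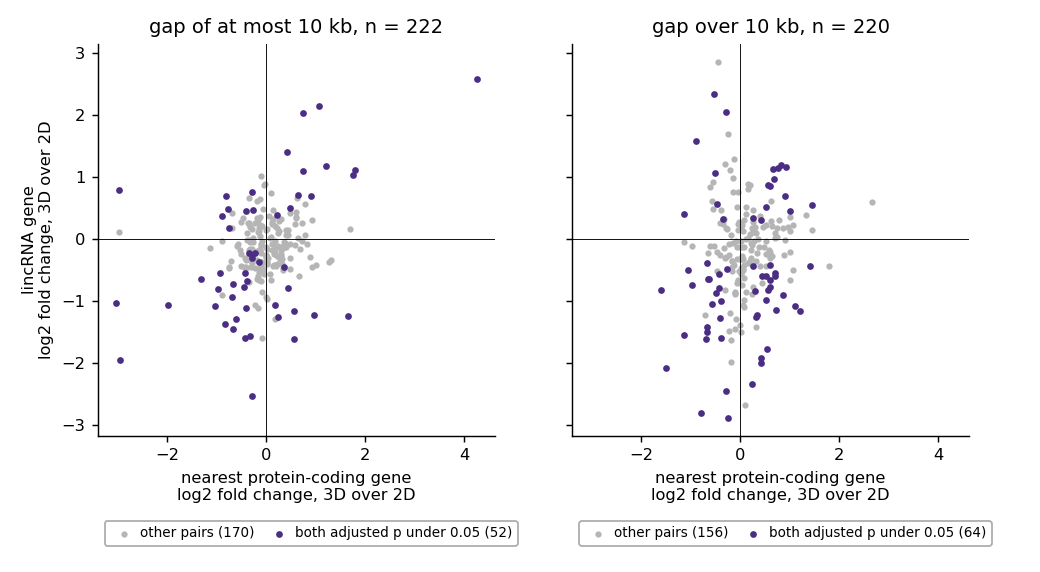
Each point is a lincRNA gene and its nearest protein-coding gene with at least 1 TPM, with the log2 fold change of the coding gene on the x axis and that of the lincRNA gene on the y axis, for gaps of at most 10 kb (left, 222 pairs) and over 10 kb (right, 220 pairs). Purple points are pairs with both genes called, of which 36 of 52 on the left share their direction. Overlapping genes, which can share reads, are among the pairs on the left.

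Head-to-head pairs, which can share a start region, made up 156 of the 442, and 67 of them were within 1 kb. Among those 67 members, 10 were called higher and 18 lower, where the background was 23.4% higher and 27.1% lower. In 15 of those pairs both genes were called, with 11 in the same direction. Examples chosen after their values were seen include Gm17501, which starts 331 bp from Cyr61, a gene of a secreted matrix protein. Gm17501 was at 5.25 and 6.05 TPM in 2D and 1.78 and 2.59 TPM in 3D, and fell by 1.07. Cyr61 was at 194 and 208 TPM in 2D and at 50.3 and 49.5 TPM in 3D, and fell by 1.99. Gm17586, 168 bp from Mafg (a small Maf transcription factor), went from 23.5 and 26.3 TPM to 53.2 and 55.4 TPM, while Mafg rose by 0.75. 4632404H12Rik, 376 bp from Ube2q1, went from 24.8 and 24.8 TPM to 69.6 and 64.3 TPM, a rise of 1.40, while Ube2q1 rose by 0.43. The opposite was seen for Gm20186, which rose by 0.44 beside Lsm8, lower in 3D by 0.40.

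Other arrangements also held pairs in both directions. Gm15889 lies 6121 bp upstream of Herpud1, a gene of the endoplasmic reticulum stress response, and both rose, by 1.17 and 1.21. Gm8066 overlaps Epo, the gene of erythropoietin, on the opposite strand. Gm8066 was at 7.99 and 9.46 TPM in 2D and 17.5 and 14.2 TPM in 3D, a rise of 0.79, whereas Epo fell by 2.97. AC117245.1, at the edge of the level threshold, was at 1.83 and 1.56 TPM in 2D and 0.295 and 0.328 TPM in 3D, and its neighbour Xirp1 fell by 3.03. These pairs were also picked by their values. Members themselves lay in 33 groups of 2 to 4 genes with gaps of at most 50 kb, 70 members in all. In 8 of these groups every member was called, and in 7 of the 8 all were lower, as at Klf6 and Mirt1. Over all 442 members 46.4% were called, and 67.3% of those calls were lower. Whether grouped members moved together more often than these shares give was not tested.

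The best-known nuclear lincRNAs, Malat1 and Neat1, were not called. Malat1, which localizes to nuclear speckles, was at 574 and 709.8 TPM in 2D and 560.4 and 611 TPM in 3D. Its difference of −0.12 (SE 0.11, adjusted p = 0.404) did not pass the test, and the cultures overlapped. Without 2D replicate 1 the value was −0.28 (adjusted p = 0.0468), and without 2D replicate 2 it was 0.03. Neat1, the scaffold of paraspeckles, was at 40.8 and 60.8 TPM in 2D and 69.4 and 64.5 TPM in 3D, a difference of 0.42 (SE 0.19, adjusted p = 0.136). The 2D libraries of Neat1 differed from each other more than the 3D libraries, and the difference was 0.70 without 2D replicate 2 (adjusted p = 0.00769) and 0.14 without 2D replicate 1 (adjusted p = 0.200). Malat1 and Neat1 are neighbours on chromosome 19, 22036 bp apart. Gm27505, an entry not annotated as lincRNA, lies inside Neat1 on the same strand. It was at 307 and 420 TPM in 2D and 561 and 544 TPM in 3D, and was called higher by 0.62 (adjusted p = 0.0269). How the quantification divided reads between Gm27505 and Neat1 is not known.

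Other named lincRNAs had mixed directions. Lncenc1, described in embryonic stem cells, was at 187 and 197 TPM in 2D and 276 and 275 TPM in 3D, a rise of 0.52 (SE 0.04, adjusted p = 0.00125). 2900097C17Rik, the mouse counterpart of NORAD, which binds Pumilio proteins, was at 43.1 and 45.0 TPM in 2D and at 63.6 TPM in both 3D libraries. It rose by 0.52 (SE 0.05, adjusted p = 0.00189), with the cultures well apart. Jpx, which lies in the X-inactivation centre, went from 1.89 and 1.72 TPM to 1.14 and 1.07 TPM, a fall of 0.41 (adjusted p = 0.0473). It lost this call when any 1 of the 4 libraries was left out, at adjusted p between 0.103 (without 2D replicate 2) and 0.161 (without 3D replicate 2). Ftx, from the same centre, differed by −0.31 (adjusted p = 0.0566), and Bvht, described in heart development, by −0.13 (adjusted p = 0.625).

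Pvt1 and Trp53cor1 lie beside growth regulators. Pvt1, 47612 bp downstream of Myc, was at 79.4 and 65.3 TPM in 2D and 90.3 and 90.6 TPM in 3D. Its difference of 0.33 (adjusted p = 0.0509) missed the threshold. It was 0.46 without 2D replicate 1 (adjusted p = 0.00811) and 0.19 without 2D replicate 2 (adjusted p = 0.0511). Myc, by contrast, fell by 0.32 (adjusted p = 0.0139), a call lost without 2D replicate 2 (adjusted p = 0.0533) or 3D replicate 1 (adjusted p = 0.0659). Trp53cor1, known as lincRNA-p21 and a target of p53, was at 51.4 and 59.8 TPM in 2D and 71.1 and 63.5 TPM in 3D. Its difference was 0.27 (SE 0.10, adjusted p = 0.0769), and it was 0.38 without 2D replicate 2 (adjusted p = 0.0432) and 0.17 without 2D replicate 1 (adjusted p = 0.221). Its head-to-head neighbour Cdkn1a, the gene of the inhibitor p21, was at 2805 and 2759 TPM in 2D and 3364 and 3323 TPM in 3D, a rise of 0.27.

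The list of such genes held 35 symbols of any annotation, of which 26 matched a gene and 17 were tested. Some symbols, such as Norad and 2900097C17Rik, stand for the same gene. Of the 17, 4 were higher and 5 lower in 3D (52.9% called, background 50.5%), with a median of −0.04, the same as for all genes. The 10 that are annotated as lincRNA included Lncenc1 and 2900097C17Rik as higher, Gm26917 and Jpx as lower and 6 not called. Among the 7 with another annotation, Tug1 rose by 0.38, whereas Kcnq1ot1 and Dleu2 both fell by 0.78. Without 3D replicate 1, 8 of the 17 were called. Xist, the RNA that coats the inactive X chromosome, was not among the members because its level was under 1 TPM.

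The most abundant members included genes at a ribosomal RNA site. Gm42418 (ENSMUSG00000098178, chr17:39846958-39848788) was at 748 and 711 TPM in 2D and at 841 and 1459 TPM in 3D. 3D replicate 2 stood apart from the other libraries, and the difference of 0.60 (SE 0.26, adjusted p = 0.120) did not pass the test. Without 3D replicate 2 the difference was 0.21 (adjusted p = 0.0859), and without 3D replicate 1 it was 1.00 (adjusted p = 0.00598). Gm42418 overlaps CT010467.1, annotated as ribosomal RNA, on the opposite strand. Gm26917 (chr17:39843013-39846341) ends 617 bp before it and was at 326 and 424 TPM in 2D and 181 and 176 TPM in 3D, a fall of 1.06 (SE 0.13, adjusted p = 0.00356). The part of ribosomal RNA carried into the libraries in these values was not tested. Without both genes, in an alternative chosen after the data were seen, 204 of 440 members were called, 67 higher and 137 lower, and the members' TPM summed to 6418 and 6652 in 2D and 5597 and 5615 in 3D.

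Also among the 8 most abundant members, 4930471E19Rik and 4930461G14Rik were lower in 3D, with no overlap of the cultures. 4930471E19Rik (chr10:120632672-120699203) was at 503 and 463 TPM in 2D and 302 and 312 TPM in 3D, a fall of 0.65 (SE 0.05, adjusted p = 0.00122). 4930461G14Rik (chr9:58455122-58469635) was at 316 and 302 TPM in 2D and 188 and 189 TPM in 3D, a fall of 0.71 (SE 0.04, adjusted p = 0.000577). Neither has a described function in its name. Epb41l4aos was at 100.4 and 93.9 TPM in 2D and 110.1 and 109 TPM in 3D, a rise of 0.17 (adjusted p = 0.0451), while its neighbour Epb41l4a fell by 0.74. That small rise lost its call without 2D replicate 2, 3D replicate 1 or 3D replicate 2, at adjusted p = 0.110, 0.175 and 0.146.

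Host genes carry snoRNAs or microRNAs in their transcripts, and their spliced exons often have no known role. Of the host genes in a list by name, 8 are members, and of these Snhg6 and Epb41l4aos were called higher, Snhg12 was called lower and 5 were not called (37.5% called, background 50.5%). By position, a snoRNA lay inside 8 members, of which 2 were higher and 3 lower (62.5% called, background 50.5%). Those lower were Snhg12, 2700038G22Rik and 9430037G07Rik, the last 2 being named here to complete the count. 2700038G22Rik was at 23.2 and 25.7 TPM in 2D and 14.5 and 15.2 TPM in 3D, a fall of 0.68 (adjusted p = 0.00303). 9430037G07Rik fell by 0.33 (adjusted p = 0.0454), a call lost when any 1 of the 4 libraries was left out, at adjusted p from 0.0939 (without 3D replicate 2) to 0.185 (without 3D replicate 1). Snhg6 was at 35.6 and 32.1 TPM in 2D and 46.4 and 47.1 TPM in 3D, a rise of 0.46 (SE 0.07, adjusted p = 0.00652). Snhg12, which contains Snora44, was at 170.0 and 182 TPM in 2D and 154 and 157 TPM in 3D, a fall of 0.18 (adjusted p = 0.0389). The cultures did not overlap for Snhg12, but the call was lost without 2D replicate 2 (adjusted p = 0.0884), 3D replicate 1 (adjusted p = 0.169) or 3D replicate 2 (adjusted p = 0.127). Snhg20 and Snhg10 differed by 0.21 (adjusted p = 0.460) and −0.31 (adjusted p = 0.154), and Snhg10 differed by −0.51 without 3D replicate 2 (adjusted p = 0.0406) and by −0.11 without 3D replicate 1 (adjusted p = 0.487).

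The microRNA hosts were low. Mir17hg, the primary transcript of the miR-17-92 cluster, was at 2.22 and 1.60 TPM in 2D and 1.55 and 1.74 TPM in 3D, a difference of −0.13 (adjusted p = 0.522). Mir670hg differed by 0.19 (adjusted p = 0.308). Mir155hg was listed at 1.16 and 0.000 TPM in 2D and at 1.40 and 2.01 TPM in 3D, a difference of 0.87 (adjusted p = 0.134). The difference was 1.43 without 2D replicate 1 (adjusted p = 0.0181) and 0.32 without 2D replicate 2 (adjusted p = 0.309), and Mir155hg passed the level rule through 3D only. A microRNA of RefSeq lay inside 9 members, of which 1 was called (11.1%, background 50.5%). This was Gm27028, which spans Mir30c-2 and was lower in 3D by 0.56 (adjusted p = 0.0202). That call was lost without 2D replicate 2 (adjusted p = 0.0835), 3D replicate 1 (adjusted p = 0.0876) or 3D replicate 2 (adjusted p = 0.0661).

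The other 13 tested genes of the host list are annotated as processed transcripts, antisense or ribozyme genes. The list was made by name, so the antisense gene Snhg7os and the ribozyme gene Rmrp need not be hosts themselves. Neither was called. Of 21 tested genes of this list, whatever their annotation, 7 were higher and 3 lower in 3D (47.6% called, background 50.5%), with a median of 0.19. The count called fell to 5 without 2D replicate 2, of which 3 were higher. Fewer of all tested genes were also called in that fit. Among the hosts, the largest difference was in Snhg15, a rise of 1.43 (SE 0.04, adjusted p = 0.000229). Snhg15 was at 556 and 524 TPM in 2D and 1473 and 1432 TPM in 3D. Snhg1 went the other way, from 662 and 611 TPM to 361 and 402 TPM, a fall of 0.74 (adjusted p = 0.00189). Gas5, at means of 349 and 359 TPM, differed by 0.04 (adjusted p = 0.483).

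Protein-coding genes that assemble, process or degrade noncoding RNA were read from lists beside the members. Of 15 paraspeckle protein genes, 2 were higher and 4 lower in 3D (median −0.10), so that 13.3% were higher and 26.7% lower, against 23.4% and 27.1% of all genes. Dazap1, an RNA-binding protein, fell by 0.63 and Matr3, a nuclear matrix protein, rose by 0.92, while Nono, a core paraspeckle protein, differed by 0.02 (adjusted p = 0.780). The call of Matr3 was lost without 2D replicate 1 (adjusted p = 0.0604), 2D replicate 2 (adjusted p = 0.128) or 3D replicate 2 (adjusted p = 0.0809), and without 3D replicate 2 only 1 of the 15 was called. Of 11 snoRNP genes, 1 was higher and 5 lower (54.5% called, background 50.5%, median −0.17), with Nop58, a core protein of box C/D snoRNPs, lower by 0.70. Without 2D replicate 1, 2 of the 11 were called, both lower.

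For the decay pathways, 2 of 14 nonsense-mediated decay genes were higher and 9 lower (78.6% called, background 50.5%, median −0.24). Smg6, the endonuclease of this pathway, fell by 0.69, Smg9 by 0.62 and Upf3b by 0.48, while Smg8 rose by 0.38. Without 3D replicate 1, 5 of the 14 were called, 1 of them higher. Of 15 genes of the nuclear exosome and its cofactors, 2 were higher and 5 lower (46.7% called, background 50.5%, median −0.09). Zcchc8, a part of the nuclear exosome targeting complex, fell by 0.54 and the exonuclease Dis3 by 0.49, whereas the exosome subunit Exosc5 rose by 0.38. Without 3D replicate 1, 5 of these 15 were called. Against all tested genes, whose median was −0.04, these lists lay slightly lower, and none of the differences was tested. With a library left out, fewer of all tested genes were called as well, not only fewer of these lists.

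Lower calls outnumbered higher calls with and without overlap with other genes. Of the 442 members, 285 overlapped no other gene of the table, and 45 of these were called higher (15.8%) and 90 lower (31.6%). Among 64 members that overlapped a gene on their own strand, 8 were higher (12.5%) and 20 lower (31.25%). Among 108 that overlapped a gene on the other strand, 16 were higher (14.8%) and 31 lower (28.7%). The background was 23.4% higher and 27.1% lower.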

How the data were processed

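A stranded kit for polyadenylated RNA was used on AML12 cells, with 2 libraries each of 2D and 3D, so transcripts without a poly(A) tail are measured only in part. Per the labels and methods, trimming used cutadapt 1.8.3 and Trimmomatic 0.36, alignment to GRCm38 used HISAT2 2.0.5 with the strand of the kit, and StringTie 1.3.4 gave gene levels on Ensembl release 93. TPM per library was deposited by the authors, without pooling. TPM keeps no depth, so no counting interval was computed. Further columns hold the log2 fold changes and p-values of the authors' DESeq2 comparison, which were not used.

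The labels gave each library its culture. On log2(TPM + 1), the 14116 of 31828 genes with a mean of at least 1 TPM were fitted with limma 3.58.1 (R 4.3.3, trend and robust variance, two-sided), with Benjamini-Hochberg adjustment over all of them, and fold changes are 3D over 2D. The fit was tested on simulated data. Permuting 2 libraries against 2 exactly cannot go under p = 0.333. Gaps between genes came from the start and end columns, exons from GENCODE M21 and sequences from RefSeq (GRCm38.p6), with Python 3.11.15, scipy 1.17.1, pandas 2.3.3 and matplotlib 3.10.9.

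Members and lists were chosen with earlier results of these data known. Named members are the 8 highest and 8 lowest fold changes among called members, the 8 of highest mean TPM, those on the lists, and the 3 members and 3 genes nearest the threshold. Any other gene was picked by its values or its place. Alternatives were other pseudocounts, filters, scalings, a replicate block, a constant prior variance, other member rules and each library left out, where the lone library of a culture is assumed to vary like the others. Some of the cell type markers first listed are not reported here.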

Additional observations from a re-analysis of the deposited data

How the results depend on the processing

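Of 205 called members, between 139 (without 3D replicate 2) and 175 (without 2D replicate 1) were called when 1 library was left out, and 157 with no filter on low values, since more genes were then tested. Leaving out a library also lowered the number of calls among all genes tested. Among members with at least 5 TPM 104 of 172 were called, and among members that overlap no gene 135 of 285, lists that are shorter by construction. Lower calls made up 62.1% to 68.9% of the calls under every alternative fit. The median log2 fold change of −0.19 was −0.26 with a pseudocount of 0.1, −0.10 with a pseudocount of 5, −0.15 after quantile normalization, −0.16 for members with at least 5 TPM, −0.22 for members that overlap no gene, −0.15 for members with 1 TPM in both cultures (chosen after seeing the data) and −0.22 to −0.18 with 1 library left out. The cause of these shifts was not tested beyond the pseudocount, which scales the change of low genes.

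The median distance of 6700 bp was 21599 bp between start sites and 9792.5 bp to protein-coding genes with at least 1 TPM. The correlation of pairs was 0.229 within 10 kb, overlapping pairs included. For 41 named members, 448 of 492 alternative values kept direction and side of the threshold, 29 lost and 11 gained a call, and 4 changed sign, none of them called with all libraries. With 1 library left out, Snhg20 ranged from −0.084 (without 3D replicate 1) to 0.51, Mir17hg from −0.28 to 0.023 (without 2D replicate 1), Bvht from −0.41 to 0.14 (without 3D replicate 2) and Malat1 from −0.28 to 0.029 (without 2D replicate 2). The cause was not tested.

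Libraries of the same replicate number showed no shared deviation from their culture means (correlation of the deviations −0.05 over 14116 genes). This cannot tell whether same-numbered libraries were prepared together. With the replicate number as a block, 182 members were called, 174 of them also without it and in the same direction.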
